A study of Mus musculus with 12 samples.

Results

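Prdm1, Prdm14 and Tfap2c encode the DNA-binding factors that specify mouse primordial germ cells, the embryonic precursors of sperm and eggs. They were taken as the 3 of 12955 genes whose symbol in the deposited expression table matched these names, and each had 1 row. The series followed Tex10, whose product works in ribosomal RNA processing and in stem cell self-renewal, in primordial germ cell-like cells (PGCLCs), which are made in culture from embryonic stem cells. All PGCLCs came from male J1 mouse embryonic stem cells and were sorted from embryoid bodies by antibodies against CD61, the product of Itgb3, and SSEA1. There were 6 groups of 2 bulk RNA libraries each. The EV and OE groups were sorted at day 2 or at day 6 and had no listed treatment, and the labels give EV and OE as abbreviations alone. The DMSO group received the solvent for 2 days and the dTAG13 group received dTAG13, a degrader that recruits a ubiquitin ligase to proteins carrying a matching tag, for 2 days; both were sorted at day 2. The labels do not name the tagged protein, the vector or the number of clones, and do not say whether the 2 libraries of a group came from separate cultures, so p-values measure only the spread between these libraries, which may be technical.

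In the embryo, BMP4 from neighbouring tissue and WNT signals make a few epiblast cells competent and then turn on Prdm1 and Prdm14. PRDM1, also called BLIMP1, is a zinc finger repressor that silences the somatic program. PRDM14, a zinc finger relative, restores the pluripotency program and holds down DNA methyltransferases and FGF signalling, in part with the corepressor CBFA2T2. TFAP2C, also called AP-2 gamma, acts downstream of PRDM1 and turns on germ cell genes such as Nanos3, Dppa3 and Kit. Prdm14 and Tfap2c are also active in naive embryonic stem cells, and Tfap2c in trophoblast, so their transcripts alone do not mark a germ cell.

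On the mm10 build (GENCODE M21, GRCm38), Prdm1 (ENSMUSG00000038151.13) lies on the minus strand of chromosome 10, from 44437177 to 44528501. Prdm14 (ENSMUSG00000042414.7) lies on the minus strand of chromosome 1, from 13113457 to 13127163. Tfap2c (ENSMUSG00000028640.11) lies on the plus strand of chromosome 2, from 172549593 to 172558622. No other annotated gene overlapped any of them. RefSeq windows from 250 bases before to 50 bases after a start site (GRCm38.p6) matched Prdm1 alone among the factors. Its window, chr10:44458699-44458998 on the minus strand and inside the annotated gene, is shown as the only one found for a factor. It had 20 CpG, the dinucleotide that DNA methyltransferases act on, in capitals. The median was 7 over 32851 windows, of which 26.5% had at least as many as Prdm1. No methylation was measured in this series.
Prdm1: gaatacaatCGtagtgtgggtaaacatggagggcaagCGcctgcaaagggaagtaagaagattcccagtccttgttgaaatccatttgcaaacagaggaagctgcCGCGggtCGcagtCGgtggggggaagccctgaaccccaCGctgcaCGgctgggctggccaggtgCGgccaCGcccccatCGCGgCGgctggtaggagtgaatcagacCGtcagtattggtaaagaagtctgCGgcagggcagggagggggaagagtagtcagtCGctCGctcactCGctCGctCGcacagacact

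Next to it stand the windows of 2 germ cell genes known to lie downstream, Nanos3 and Kit, chosen after their values were seen. Each holds 1 match, in capitals, to the AP-2 motif GCCNNNGGC searched on both strands. The Nanos3 window is chr8:84176503-84176802 on the minus strand, with the match 221 bases before the start site. The Kit window is chr5:75574737-75575036 on the plus strand, with the match 134 bases before the start site.
Nanos3: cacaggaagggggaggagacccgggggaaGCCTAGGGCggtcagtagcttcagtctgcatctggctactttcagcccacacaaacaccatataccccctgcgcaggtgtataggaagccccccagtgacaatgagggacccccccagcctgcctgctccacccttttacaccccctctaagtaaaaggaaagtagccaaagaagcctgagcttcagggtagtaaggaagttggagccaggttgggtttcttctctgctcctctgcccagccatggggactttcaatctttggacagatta
Kit: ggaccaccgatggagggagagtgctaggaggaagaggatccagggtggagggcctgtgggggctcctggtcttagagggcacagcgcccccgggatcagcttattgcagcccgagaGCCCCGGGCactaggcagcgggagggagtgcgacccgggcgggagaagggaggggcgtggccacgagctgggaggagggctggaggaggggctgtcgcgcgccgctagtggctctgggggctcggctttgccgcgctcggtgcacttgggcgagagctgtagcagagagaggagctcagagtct
The AP-2 motif occurred in 16.6% of all windows and in 29.1% of the 9823 table genes with a window. Among the germ cell genes described below, 7 of 19 with a window held it, and among the genes described as held down, 5 of 15. The letters GTGAAAG, part of a motif known for PRDM1, stood in 4.24% of all windows, in 1 of the 19 and in 0 of the 15. GGTCTCTAA, known for PRDM14, stood in 0.256% of all windows and in 0 of both sets. The Prdm1 window held none of the 3 motifs. A match is a description of these letters and not a measured binding site.

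Several facts of the whole series bear on the values. Levels are in FPKM, reads scaled by transcript length and library size, summed to between 550230 and 673435 per library, and the sequencing depth is unknown. The first dTAG13 library stood apart, with 2008 genes (15.5%) listed at 0, against 18 to 127 in the other 11, so the dTAG13 tests of the factors, lists and named list genes are also given without it. Tex10 ran from 378 to 403 FPKM in day 2 OE against 119 to 145 in EV of that day, from 259 to 269 against 65.7 to 81.5 at day 6, and from 36.5 to 45.2 with dTAG13 against 56.8 to 61.7 with DMSO. None of these pairs of groups overlapped. Itgb3, the gene of the sorting antigen, was low, from 0 to 4.39 FPKM, and the gene of the enzyme behind SSEA1, Fut4, was not analysed here. Of 10 germ cell markers 9 were in the table, and the 6 besides the specifying factors summed to 265 to 315 FPKM in 10 libraries and to 444 and 436 in the day 6 OE libraries. Alpl alone gave 145 to 294 FPKM of each sum. Against day 6 EV, day 6 OE was higher without overlap in Alpl, Kit, Dppa3 and Itgb3, as it was in 39.3% of the genes tested below. Dnd1 overlapped between these groups, and Nanos3 was lower in OE. Of 10 naive stem cell markers, the 8 besides Prdm14 and Tfap2c summed to 924 to 1226 FPKM per library. Zfp42 alone gave 408 to 771 FPKM of this, while Klf4 ran from 6.57 to 24.4. Endoderm markers (3 of 10 in the table) summed to at most 19 FPKM and mesoderm markers (7 of 12) to at most 17.8. In bulk RNA, fewer cells of a type and less RNA per cell cannot be told apart.

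All 3 factors were detected in all 12 libraries, and on the length-corrected FPKM scale Tfap2c stood above Prdm14 and Prdm14 above Prdm1 in each of them. Prdm1 ran from 3.37 to 7.19 FPKM with a median of 4.61, which lay above 34.9% to 47.3% of the genes in its library at its lowest and highest. Prdm14 ran from 14.9 to 36.6 FPKM (median 22.1) and Tfap2c from 36.7 to 121 FPKM (median 55.5), the latter above 77.8% to 91.7% of genes. The 3 transcripts did not keep a fixed proportion. The ratio of Tfap2c to Prdm14 was 6.72 and 6.18 in the dTAG13 libraries, 3.47 and 4.52 in day 2 EV, 2.84 and 2.61 with DMSO, 2.68 and 1.95 in day 2 OE, 1.54 in both libraries of day 6 EV, then 1.48 and 1.34 in OE of the same day. It was therefore highest with dTAG13 and lowest at day 6 in these libraries.

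**Figure D1:**
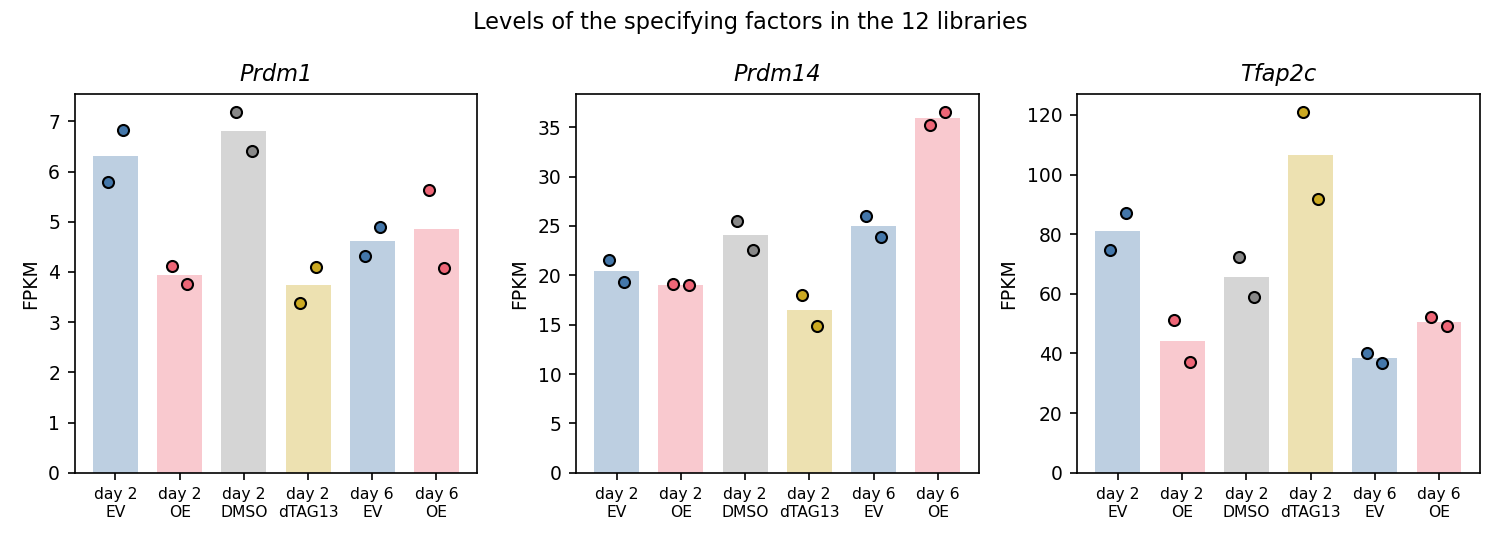
FPKM of Prdm1, Prdm14 and Tfap2c in each group; points are the 2 libraries and bars their mean, on axes that start at 0. Prdm1 is lowest in day 2 OE and with dTAG13, Prdm14 is highest in day 6 OE, and Tfap2c is highest with dTAG13.

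By group mean (± SD, n = 2), Prdm1 was highest with DMSO, at 6.81 ± 0.550 FPKM, followed by day 2 EV (6.32 ± 0.731), day 6 OE (4.85 ± 1.10), day 6 EV (4.61 ± 0.404), day 2 OE (3.93 ± 0.256) and dTAG13 (3.73 ± 0.511). Of these neighbours, DMSO and day 2 EV overlapped, as did the day 6 groups with each other and day 2 OE with dTAG13. Prdm14 was highest in day 6 OE, at 35.9 ± 0.934 FPKM, followed by day 6 EV (24.96 ± 1.51), DMSO (24.05 ± 2.11), day 2 EV (20.45 ± 1.62), day 2 OE (19.05 ± 0.0605) and dTAG13 (16.4 ± 2.24). Only day 6 EV and DMSO overlapped among its neighbours. Tfap2c was highest with dTAG13, at 106 ± 20.7 FPKM, followed by day 2 EV (81.0 ± 8.76), DMSO (65.7 ± 9.59), day 6 OE (50.6 ± 2.13), day 2 OE (44.0 ± 9.995) and day 6 EV (38.4 ± 2.40). The lowest 3 groups overlapped as neighbours, and the upper 3 stood clear of the next.

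Differences between groups were tested with limma across 12059 genes on log2(FPKM + 1), a scale that understates the change of low genes, and a change was called where the p adjusted after Benjamini and Hochberg lay below 0.05. All 3 factors passed the filter on low values. Day 2 OE was first set against day 2 EV, which asks how the OE cells differ shortly after induction. Tfap2c read 51.1 and 37.0 FPKM in OE against 74.8 and 87.2 in EV. Both OE libraries lay below both EV libraries, and the difference of -0.88 (SE 0.19, 95% interval -1.30 to -0.46) missed the threshold with limma, at an adjusted p of 0.0691. Prdm1 read 4.11 and 3.75 FPKM against 5.80 and 6.83, again without overlap. Its difference of -0.57 (interval -1.04 to -0.09) had an adjusted p of 0.298. Prdm14 read 19.09 and 19.01 FPKM against 21.6 and 19.3, a difference of -0.10 with an interval from -0.42 to 0.23. None of the 3 therefore passed, against 0.846% of all genes, and a non-overlap downward, which all 3 showed, was found in 22.6% of genes. A difference at least as low as that of Tfap2c was found in 1.29% of genes, and as that of Prdm1 in 4.4%. The outlying dTAG13 library enters the shared estimate of the spread. Without it the differences of Tfap2c and Prdm1 were unchanged and passed, but calls over all genes also became far more frequent.

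Downstream at day 2, 26 genes known to lie under the 3 factors, called germ cell genes here, were all tested. The list also holds pluripotency genes such as Pou5f1 and Sox2. Among these Klf4, Tfcp2l1 and Esrrb are also naive stem cell markers, so the list is not specific to germ cells. Of the 26 genes, 1 fell and 0 rose in OE (3 and 6 at an unadjusted p below 0.05 with limma, which 12.3% of all genes met), with a median difference of 0.03 (-0.02 under median-ratio scaling) against 0.04 over all genes. The one that fell was Nanos3, an RNA-binding protein that keeps early germ cells alive, at 18.5 and 10.99 FPKM in OE against 37.8 and 53.6 in EV. Its drop of -1.59 (SE 0.30, adjusted p = 0.0462) lost the call when any 1 of the 4 libraries was left out (differences from -1.94 to -1.24). The call was also lost under the replicate block (adjusted p = 0.0731), with a pseudocount of 0.1 (0.0603) and, narrowly, without the filter on low values. Of 16 tested genes described as held down by the factors, among them de novo methyltransferases and FGF receptors, 0 passed with limma, and 1 was higher and 2 lower at an unadjusted p below 0.05. The widest differences were those of the FGF receptors Fgfr2 (-1.10, adjusted p = 0.135) and Fgfr1 (-0.75, adjusted p = 0.0705). Of 15 tested signals and regulators upstream and 16 proteins known to work with the factors, 0 passed in either list. The arginine methyltransferase Prmt5, which is in both lists, was the 1 gene of each that was higher at an unadjusted p below 0.05.

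At day 6, OE was set against EV at the same age. Prdm14 read 35.3 and 36.6 FPKM in OE against 26.0 and 23.9 in EV, so that both OE libraries lay above both EV libraries. The difference of 0.51 (SE 0.14, interval 0.19 to 0.83) had an adjusted p of 0.0874. Tfap2c read 52.1 and 49.1 FPKM against 40.1 and 36.7, also without overlap, a difference of 0.39 (interval -0.03 to 0.81, adjusted p = 0.312). Prdm1 read 5.63 and 4.08 FPKM against 4.32 and 4.90, values that overlapped, and its difference was 0.05 (interval -0.42 to 0.52). None of the 3 passed, against 3.72% of all genes (1.92% rose and 1.79% fell, or 2.03% and 2.84% under median-ratio scaling), and an upward non-overlap, shown by Prdm14 and Tfap2c, was found in 39.3%. Without the first dTAG13 library the same difference of Prdm14 passed and that of Tfap2c did not. Calls over all genes were also far more frequent in that fit.

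Of the 26 germ cell genes, 6 rose in OE and 0 fell (11 and 4 at an unadjusted p below 0.05 with limma, which 18% of all genes met), with a median of 0.22 (0.09 under quantile normalization, with 5 risen) against 0.05 over all genes. Dazl, an RNA-binding protein of licensed germ cells, rose from 4.82 and 5.53 FPKM in EV to 31.7 and 22.8 in OE, by 2.18 (SE 0.46, adjusted p = 0.0326). Dppa3, a maternal factor that guards methylation, rose from 7.05 and 9.63 to 21.2 and 20.4 FPKM, by 1.24 (adjusted p = 0.00974). Kit, the receptor that carries survival signals in germ cells, rose from 46.7 and 41.4 to 96.0 and 92.6 FPKM, by 1.08 (adjusted p = 0.00712). The naive pluripotency factor Tfcp2l1 rose by 0.71 (adjusted p = 0.0282). Nanos3 read 3.89 and 2.84 FPKM in OE against 9.22 and 6.29 in EV. Of the 16 tested genes described as held down, 3 fell and 0 rose (7 and 1 at an unadjusted p below 0.05), with a median of -0.28. Under quantile normalization 6 fell and 1 rose, with a median of -0.41, while calls over all genes went from 3.72% to 8.69%. Dnmt3l, the cofactor of the de novo methyltransferases, fell from 32.7 and 37.0 FPKM to 10.6 and 8.83, by -1.74 (SE 0.15, adjusted p = 0.00106). Dnmt3b, a de novo methyltransferase, fell by -0.90 (adjusted p = 0.00712), and the proliferation factor Myc by -1.37 (adjusted p = 0.0303). Of the 15 upstream genes Nanog, a pluripotency factor that can turn on the specifying factors, rose by 0.65 (adjusted p = 0.0313) and Bmp4, the inducing ligand, fell by -0.77 (adjusted p = 0.0418). Of the 16 partners, Ezh2, the methyltransferase of Polycomb complex 2, rose by 0.57 (adjusted p = 0.0189), and Yeats4 by 0.49 (adjusted p = 0.0443), a call that quantile normalization, median-ratio scaling and the replicate block ended (adjusted p = 0.0585, 0.0772 and 0.052). The block also ended those of Bmp4 (0.0561) and Myc (0.0501), and a pseudocount of 0.1 those of Bmp4 (0.0508) and Dazl (0.0624). Of the 11 genes of these lists named here as changed, Dnmt3l alone passed whichever single library was left out.

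The OE effects at the 2 ages were then compared directly. Each effect rests on its own EV libraries. Tfap2c in OE lay below EV at day 2 and above it at day 6 without overlap on either day, a combination found in 6.02% of genes, and its effects differed by 1.27 (SE 0.26, interval 0.68 to 1.86). The adjusted p was 0.0958 with limma, and a difference at least as high occurred in 0.506% of genes. The corresponding differences were 0.60 for Prdm14 (interval 0.15 to 1.06, adjusted p = 0.292) and 0.62 for Prdm1 (interval -0.05 to 1.29, adjusted p = 0.509). None passed, against 0.232% of all genes (0.0663% higher and 0.166% lower, or 0.539% and 0.713% under quantile normalization). Without the first dTAG13 library, which is in neither effect, Tfap2c and Prdm14 passed and Prdm1 did not. Calls over all genes also became far more frequent in that fit. Of the 26 germ cell genes, 0 passed (9 higher and 2 lower at an unadjusted p below 0.05 with limma, which 10.8% of all genes met), Dazl differing by 2.24 (adjusted p = 0.222) and Dppa3 by 0.82 (adjusted p = 0.269). Of the 16 genes described as held down, Dnmt3l alone passed, at -1.74 (adjusted p = 0.0165).

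**Figure D2:**
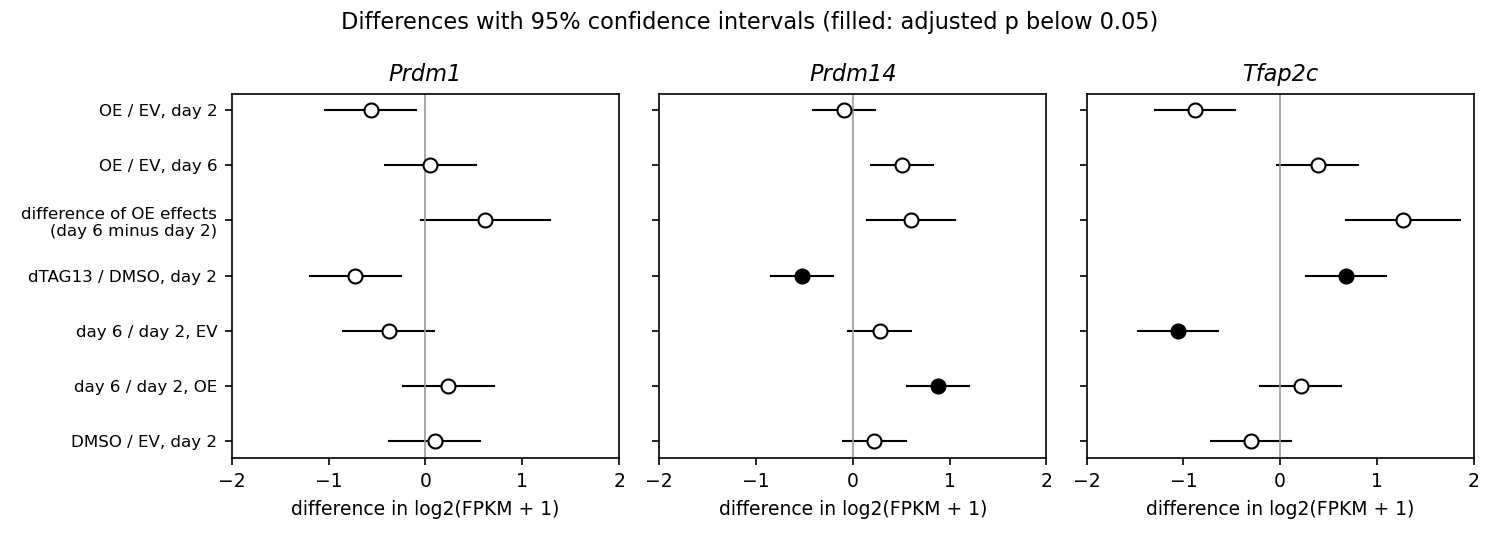
Differences in log2(FPKM + 1) for each factor in the 7 comparisons, with 95% confidence intervals from limma; filled points have an adjusted p below 0.05. Filled points appear for Prdm14 and Tfap2c with dTAG13, Tfap2c from day 2 to day 6 in EV, and Prdm14 from day 2 to day 6 in OE.

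With dTAG13, Tfap2c rose and Prdm14 fell against DMSO, and no factor's libraries overlapped between these groups. Tfap2c read 121 and 91.8 FPKM with dTAG13 against 72.5 and 58.9 with DMSO, and rose by 0.68 (SE 0.19, interval 0.27 to 1.10, adjusted p = 0.0421). Prdm14 read 18.0 and 14.9 FPKM against 25.5 and 22.6, and fell by 0.53 on the log2 scale (SE 0.14, adjusted p = 0.0421). Prdm1 read 3.37 and 4.09 FPKM against 7.19 and 6.42. Its difference of -0.72 (interval -1.20 to -0.25) had an adjusted p of 0.0523 and did not pass. Thus 2 of 3 passed, against 12.2% of all genes, of which 4.01% rose and 8.21% fell (6.05% and 5.84% after quantile normalization, 5.88% and 4.96% with scaling by median ratios). The median over all genes was -0.13, and 34.7% of genes lay lower without overlap against 13.8% higher. Without the first dTAG13 library, in a fit that assumes that the lone second library varies like the other groups, the difference of Tfap2c was 0.48 (adjusted p = 0.069), that of Prdm14 -0.66 (adjusted p = 0.00505) and that of Prdm1 -0.61 (adjusted p = 0.036). In a fit of the 2 groups alone neither call held, at adjusted p = 0.425 for Tfap2c and 0.479 for Prdm14, nor when either DMSO library was left out (0.111 and 0.244 for Tfap2c, 0.253 and 0.134 for Prdm14).

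The summed level of trophoblast markers differed between these groups, carried mostly by a pair of keratins. Of 12 markers 8 were in the table, and their sum was 154 and 182 FPKM with dTAG13, 78.4 and 72.1 with DMSO, and 30.1 to 53.2 in the EV and OE libraries. The simple epithelial keratins Krt8 and Krt18 together made up 134 and 138 FPKM of the dTAG13 sums and 53.2 and 52.96 of the DMSO sums. The other 6 summed to 19.8 and 44.3 FPKM with dTAG13 and to 25.2 and 19.2 with DMSO, which overlapped. With dTAG13, 3 of the 8 rose, against 4.01% of all genes, and 0 fell, with 3 higher and 1 lower at an unadjusted p below 0.05 with limma. With that group's first library left out, so on the second alone, the median difference of the 8 was 1.21, against 0.43 with it. Over all genes the medians were -0.17 and -0.13. The 3 that rose in the fit of all libraries were Krt8, Krt18 and Hand1, a trophoblast and mesoderm factor, named after their values were seen. Krt8 went from 38.7 and 35.5 to 96.2 and 76.2 FPKM, Krt18 from 14.5 and 17.4 to 37.6 and 61.4, and Hand1 from 4.16 and 2.88 to 7.94 and 10.7. Of the other 5, Gata3 differed by 0.45, Ascl2 by 0.41, Krt7 by -0.11, Gata2 by -0.15 and Eomes by -0.92, none past the threshold. Between DMSO and day 2 EV, 3 of the 8 rose, against 0.39% of all genes called in either direction, and these were Hand1, Gata2 and Krt8. In the first dTAG13 library 3 of the 8 were listed at 0, namely Krt7, Ascl2 and Eomes, so their differences above average unlike libraries. In the second, Krt7 read 12.6 FPKM against 2.91 and 3.02 with DMSO, and Ascl2 7.36 against 1.07 and 1.29. Eomes read 1.47 FPKM there, against 2.14 and 1.81 with DMSO. Cdx2 and Elf5, which define trophoblast, and Tfap2a were not analysed here. In day 2 EV, a group outside the dTAG13 comparison, Tfap2c read 74.8 and 87.2 FPKM at marker sums of 35.7 and 30.1. Whether trophoblast cells were present, and what part they had in the Tfap2c result, was not tested.

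**Figure D3:**
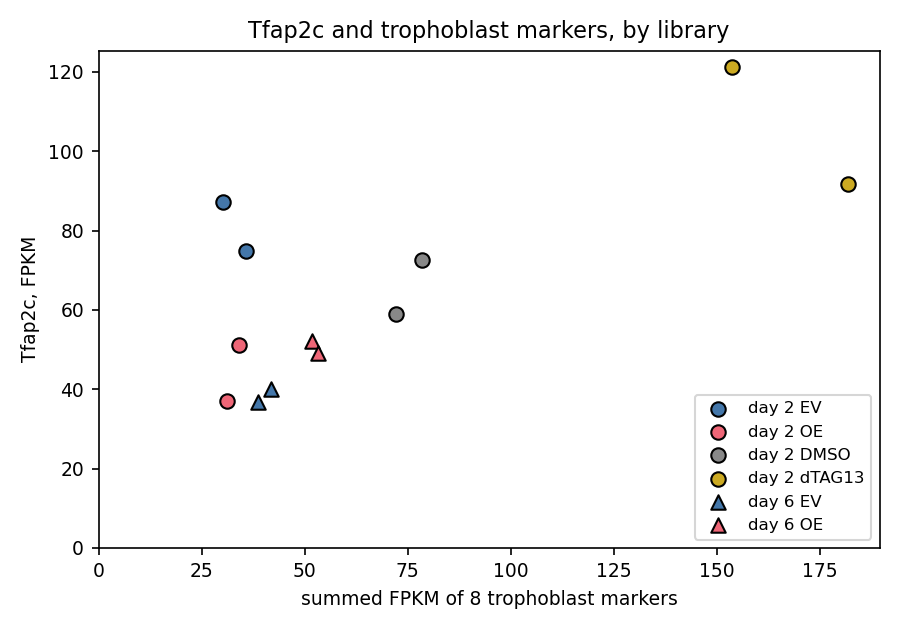
Tfap2c in FPKM against the summed FPKM of 8 trophoblast markers, 1 point per library, coloured by group, with triangles for day 6. The dTAG13 libraries lie at the upper right, at sums of 154 and 182, and the day 2 EV libraries, next highest in Tfap2c by group mean, lie at sums of 35.7 and 30.1.

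Over all genes, 4.01% rose with dTAG13 and 8.21% fell. Upstream of the factors, Lin28a, the RNA-binding protein that blocks let-7 and so protects Prdm1 transcripts, fell from 33.9 and 32.0 FPKM with DMSO to 5.51 and 9.26 with dTAG13, by -2.05 (SE 0.22, adjusted p = 0.000709; -1.73 without the first dTAG13 library). Bmp4 fell by -0.70 (adjusted p = 0.0312; -0.77 without that library) and the zinc finger factor Sall4 by -0.72 (adjusted p = 0.0347; -0.44 and adjusted p = 0.0522 without it). These were the 3 of 15 that passed, and 0 rose, also at an unadjusted p below 0.05 with limma, while without the first dTAG13 library 3 fell and 1 rose. Of the 16 partners 4 fell and 0 rose, and without the first dTAG13 library 10 fell, in a fit where the share of all genes that fell was 17% in place of 8.21%. The 4 were the histone H3K9 methyltransferases Ehmt1 (-0.96, adjusted p = 0.0181) and Ehmt2 (-0.68, adjusted p = 0.0224), the corepressor Tle3 (-0.79, adjusted p = 0.036), and Ezh2 (-0.41, adjusted p = 0.0333). Without the first dTAG13 library the values were -0.59, -0.67, -0.80 and -0.42, each past the threshold. Quantile normalization ended the calls of Tle3, Ezh2 and Sall4, and median-ratio scaling those of Ehmt1, Ezh2 and Sall4.

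Downstream of the factors, 3 of 26 germ cell genes rose with dTAG13 and 6 fell, while 4.01% of all genes rose and 8.21% fell. The median of the 26 was -0.17, against -0.13 over all genes. In the fit lacking the first dTAG13 library 3 rose and 6 fell, with a median of -0.34 against -0.17 over all genes in that fit. Quantile normalization and median-ratio scaling each gave 3 risen and 3 fallen. Over all genes, 6.05% rose and 5.84% fell under quantile normalization, and 5.88% and 4.96% under median-ratio scaling. Tcl1, an AKT coactivator of stem cells, fell from 130 and 128 FPKM to 64.1 and 63.4, by -1.01 (SE 0.10, adjusted p = 0.000468; -1.02 without the first dTAG13 library). Dppa3 rose from 42.4 and 31.6 to 75.8 and 69.2 FPKM, by 0.96 (adjusted p = 0.0124; 0.90 without the first dTAG13 library). The orphan nuclear receptor Esrrb fell by -0.89 (adjusted p = 0.0223; -0.55 without that library), a call that quantile normalization and median-ratio scaling ended (adjusted p = 0.0504 and 0.0581). The 5-methylcytosine dioxygenase Tet1 fell by -0.74 (adjusted p = 0.0314; -0.71 without that library). Nanos3, at 38.0 and 56.9 FPKM with dTAG13 and 55.2 and 50.01 with DMSO, overlapped. Of the 16 genes described as held down, 4 fell and 0 rose, also at an unadjusted p below 0.05, and 9 fell and 1 rose without the first dTAG13 library, where 17% of all genes fell and 6.25% rose. The 4 were Myc (-1.02, adjusted p = 0.0432), Ehmt1, Dnmt3b (-0.74, adjusted p = 0.00732) and the maintenance methylation factor Uhrf1 (-0.62, adjusted p = 0.0327), and all 4 passed without that library, at -1.17, -0.59, -0.69 and -0.91. The replicate block and a pseudocount of 0.1 ended the call of Myc (adjusted p = 0.0623 and 0.0642), and the pseudocount also that of Tle3 (0.0512). Of the 14 genes of the lists named here as changed with dTAG13, Lin28a and Tcl1 passed whichever single library was left out, and none passed in a fit of these groups alone.

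**Figure D4:**
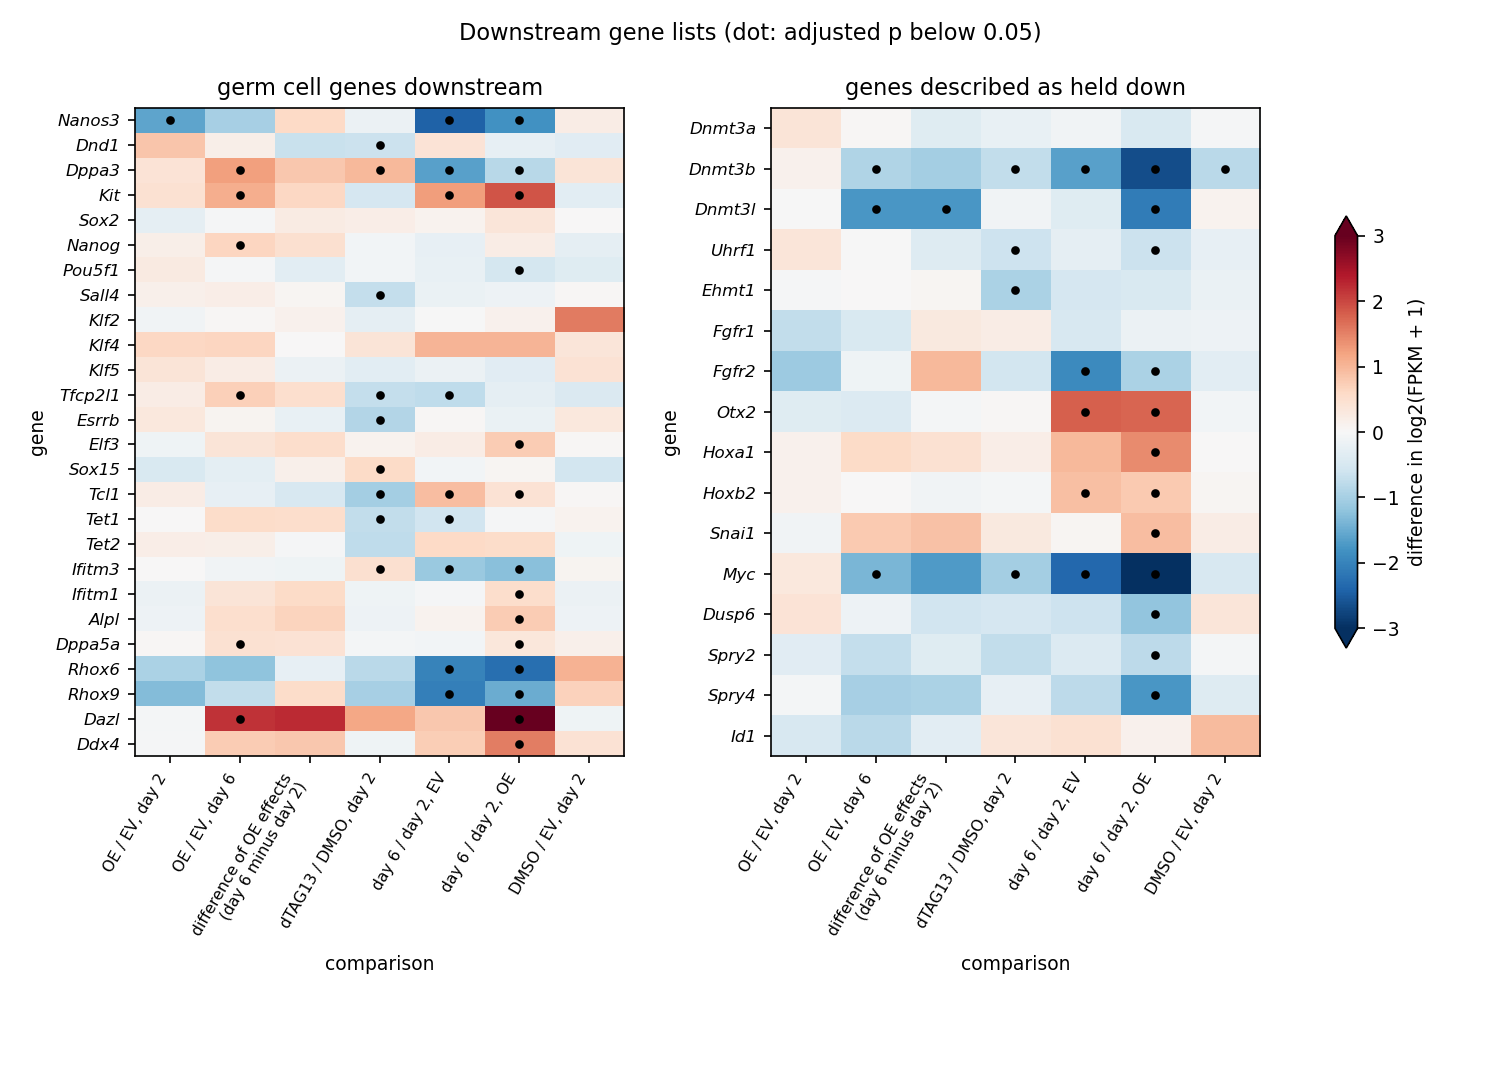
Differences in log2(FPKM + 1), as colours from -3 to 3, of the 26 germ cell genes (left) and the 16 genes described as held down (right) in each of the 7 comparisons; a dot marks an adjusted p below 0.05. In OE against EV, 6 of the 26 carry a dot at day 6 and 1 at day 2.

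Between day 2 and day 6, the factors were followed in EV and, in separate cells, in OE. In EV, Tfap2c fell from 74.8 and 87.2 FPKM to 40.1 and 36.7, by -1.05 (SE 0.19, interval -1.47 to -0.64, adjusted p = 0.0035), with both day 6 libraries below both day 2 libraries. The call held in all alternatives run, with differences from -1.16 to -0.94. Prdm14 read 26.0 and 23.9 FPKM at day 6 against 21.6 and 19.3, and its difference of 0.28 (interval -0.05 to 0.60) had an adjusted p of 0.198. Prdm1 read 4.32 and 4.90 FPKM at day 6 against 5.80 and 6.83, a difference of -0.38 (interval -0.85 to 0.09, adjusted p = 0.226). So 1 of 3 passed, against 23.7% of all genes, 10.5% in the lower direction, and all 3 were free of overlap, as were 73% of genes. In OE, Prdm14 rose from 19.09 and 19.01 to 35.3 and 36.6 FPKM, by 0.88 (SE 0.14, interval 0.56 to 1.20, adjusted p = 0.00149), which again held in all alternatives run (0.86 to 0.91). Tfap2c, at 52.1 and 49.1 FPKM against 51.1 and 37.0, overlapped between the days, with a difference of 0.21 (interval -0.20 to 0.63, adjusted p = 0.42), and Prdm1 likewise, with 0.24 (interval -0.24 to 0.71, adjusted p = 0.434). Here 1 of 3 passed, against 32.3% of all genes, 17.5% in the higher direction, and Prdm14 was free of overlap upward, as were 46% of genes. The test of whether the day 2 to day 6 change differs between OE and EV is the same as that of the OE effects above. The median over the 20 tested genes nearest to Prdm14 on chromosome 1 was 0.41 in this OE comparison, against 0.08 over all genes, and that around Tfap2c in EV was -0.07 against 0.04.

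Over the same interval, 2 of 26 germ cell genes rose in EV and 7 fell, and 8 rose and 6 fell in OE. Their medians were -0.06 (0.05 under quantile normalization) and 0.10. Over all genes, 13.3% rose and 10.5% fell in EV, and 17.5% rose and 14.7% fell in OE, with medians of 0.04 and 0.08. Nanos3 fell in EV from 37.8 and 53.6 FPKM to 9.22 and 6.29, by -2.42 (SE 0.30, adjusted p = 0.000626), and in OE by -1.82 (adjusted p = 0.00148). The homeobox genes Rhox9 (-2.04, adjusted p = 0.00152) and Rhox6 (-2.001, adjusted p = 0.00867) and Dppa3 (-1.64, adjusted p = 0.000413) also fell in EV. In OE, Dazl rose by 3.05 (adjusted p = 0.000973) and Kit by 1.89 (adjusted p = 3.65e-05), and Rhox6 fell by -2.26 (adjusted p = 0.00338). Of the 16 genes described as held down, 2 rose and 3 fell in EV, and 4 rose and 8 fell in OE, with medians of -0.39 and -0.55. Myc fell by -2.36 in EV (adjusted p = 0.000544) and by -4.05 in OE (adjusted p = 1.93e-05), and Dnmt3b by -1.63 (adjusted p = 5.88e-05) and -2.66 (adjusted p = 4.22e-06). Fgfr2 fell in EV by -1.92 (adjusted p = 0.00157), and Dnmt3l in OE by -2.11 (adjusted p = 2.35e-05). Otx2, an epiblast factor known to oppose germ cell entry, rose from 3.21 and 3.93 FPKM to 14.3 and 15.3 in EV, by 1.79 (adjusted p = 0.000769), and by 1.74 in OE (adjusted p = 0.000445). Of the 15 upstream genes, 1 rose, which was Otx2, and 3 fell in EV and in OE. Bmp4 fell in EV by -1.07 (adjusted p = 0.0024) and in OE by -2.09 (adjusted p = 4.57e-05), Lin28a by -0.80 (adjusted p = 0.0253) and -1.93 (adjusted p = 0.000203), and Prmt5, an arginine methyltransferase that works with PRDM1, by -0.36 (adjusted p = 0.0483) and -0.64 (adjusted p = 0.00242). Among the partners 3 fell in EV and 4 in OE. Both sets held Prmt5, its cofactor Wdr77 (-0.75 in EV and -0.61 in OE) and the Polycomb subunit Eed (-0.78 and -0.97), and the OE set also held Ehmt2 (-0.95). Quantile normalization and a pseudocount of 0.1 ended the calls of Prmt5 and Eed in EV, and the replicate block that of Eed (adjusted p = 0.0588).

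The control groups of day 2, DMSO and EV, belong to different comparisons and were set against each other. They differed in Tex10 itself, at 61.7 and 56.8 FPKM with DMSO against 119 and 145 in EV. None of the factors passed, against 0.39% of all genes. Prdm14 was 0.22 higher with DMSO (interval -0.10 to 0.54), Tfap2c differed by -0.30 (interval -0.72 to 0.11) and Prdm1 by 0.10 (interval -0.38 to 0.57). Prdm14 and Tfap2c did not overlap between these controls, nor did 52.2% of genes. Dnmt3b, at 40.3 and 45.1 FPKM with DMSO against 79.9 and 72.4 in EV, fell by -0.82 (adjusted p = 0.0254), the 1 gene of the 16 described as held down that passed. The call was lost when any 1 of the 4 libraries was left out (adjusted p from 0.125 to 0.353) and under the replicate block (0.0532). Of the 26 germ cell genes 0 passed (4 higher and 3 lower at an unadjusted p below 0.05 with limma, which 8.92% of all genes met).

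Among relatives of the factors, 7 of 14 other PRDM genes were in the table and 6 were tested, while the other AP-2 genes were not analysed here. Prdm16, a regulator of brown fat and stem cells, rose in OE from day 2 to day 6 by 0.81 (adjusted p = 0.00981), at levels of at most 1.51 FPKM. The call was lost with a pseudocount of 0.1 (adjusted p = 0.116) and when either day 2 OE library was left out (0.059 and 0.0575). With dTAG13, Prdm15, at 0.00486 FPKM in the first dTAG13 library and 2.51 in the second against 3.50 and 3.63 with DMSO, differed by -1.28 (adjusted p = 0.0881; -0.38 without the first library).

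The genes most like each factor were found by the root-mean-square difference of log2(FPKM + 1) over the 12 libraries, each gene centred on its mean. Nearest to Prdm1, whose own spread by this measure was 0.290, were Arhgap42 (0.131), Yy2 (0.132), Rbm26 (0.138), Kat6a (0.139) and Pdlim7 (0.139). Nearest to Prdm14, with a spread of 0.353, were Fnbp1 (0.1205), Galnt11 (0.129), Slc22a5 (0.130), Adpgk (0.1315) and Bag2 (0.146). Nearest to Tfap2c, with a spread of 0.522, were Tpm1 (0.173), Slc30a2 (0.173), Zfp36 (0.216), Hsdl1 (0.219) and Scmh1 (0.222). Tpm1 had group means of 194 FPKM with dTAG13, 142 with DMSO, 136 in day 2 EV, 90.8 in day 2 OE, 84.8 in day 6 OE and 78.8 in day 6 EV. Without the first dTAG13 library, 2, 1 and 2 of the 5 genes stayed among the nearest 5 of Prdm1, Prdm14 and Tfap2c. The factors themselves were farther apart, at 0.402 between Prdm1 and Prdm14, 0.567 between Prdm1 and Tfap2c and 0.752 between Prdm14 and Tfap2c, the last above the spread of either.

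**Figure D5:**
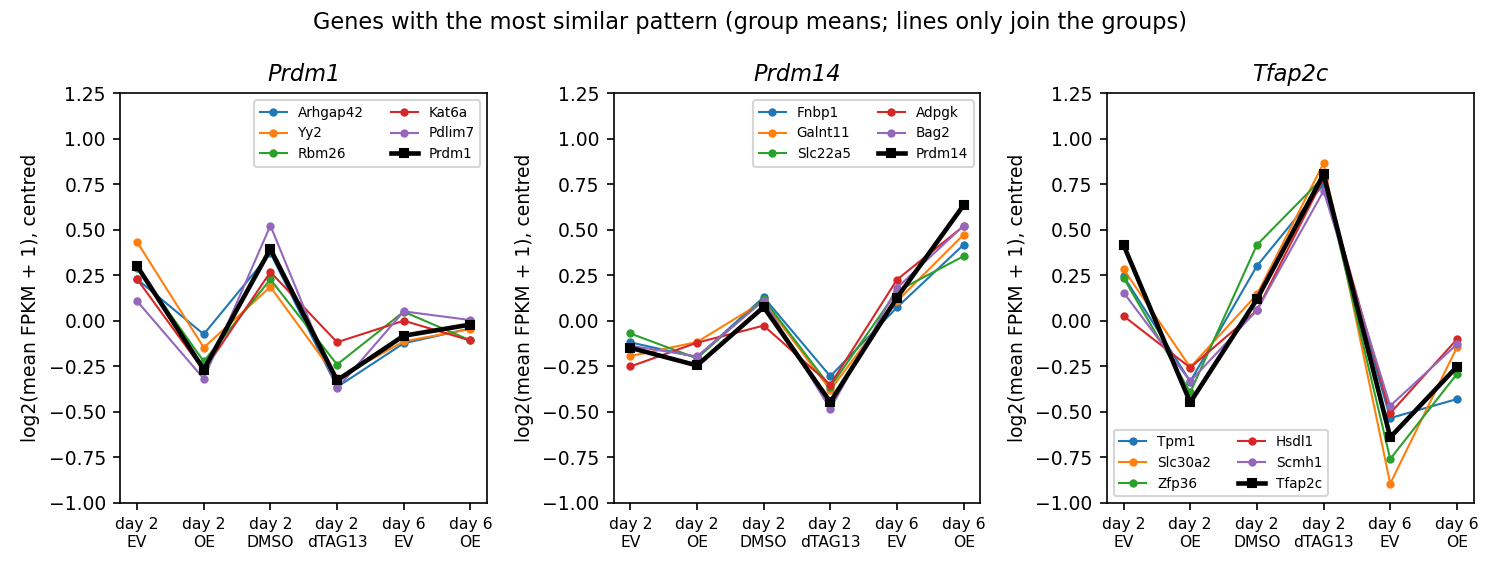
log2(mean FPKM + 1) per group, centred on the mean of the groups, for each factor (black) and its 5 nearest genes (colours); lines only join the groups. The Prdm14 panel peaks in day 6 OE and the Tfap2c panel with dTAG13.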

How the data were processed

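Poly(A)-enriched RNA, extracted with Trizol, was sequenced from 12 libraries in 6 groups of 2. Per the submitters' processing notes, FastQC 0.10.1, Trim Galore 0.6.3, cutadapt, STAR 2.7.6a, Cufflinks 2.2.1 and the mm10 build were used. The deposited table holds FPKM values by the authors with an added 1, inferred from the smallest value of 1 and from the digits (90.1% of values between 1.1 and 2 have 7 or more digits, against 0% from 2 to 10); that 1 was subtracted. Depth is not given in the sources used here, so FPKM could not be turned into counts. Groups followed the labels, and 1 library whose title reads dATG was placed by its treatment field.

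The 12059 genes that reached 1 FPKM in 2 or more libraries were fitted on log2(FPKM + 1) with limma 3.58.1 in R 4.3.3, in 1 model of all 6 groups with a trended prior (6 residual and 3.86 prior degrees of freedom), and checked on simulated data. OE effects of both days share no library; the comparisons over days share theirs with them, and DMSO against EV shares its groups with others. Genes named were the factors, up to 4 called members per list and comparison, or 2 uncalled ones, the 5 nearest genes, Tex10 and Itgb3; a few values of other members are given and said to be chosen later or stand beside a named result. The members, lists and rules were chosen with earlier results of these data known. Tables and plots were made in Python 3.11.15 (matplotlib 3.10.9, numpy 2.4.6, pandas 2.3.3, scipy 1.17.1). The result for 1 of the listed relatives is not reported here.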

Additional observations from a re-analysis of the deposited data

Results flagged for a closer look

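Dnmt3l, the methyltransferase cofactor among the genes described as held down by the specifying factors, responded differently in OE at the 2 ages by the test of that difference (-1.74, SE 0.22, adjusted p = 0.0165 with limma). At day 2 it read 47.5 and 42.9 FPKM in OE against 51.3 and 40.1 in EV. At day 6 it read 10.6 and 8.83 FPKM in OE against 32.7 and 37.0 in EV. Leaving out any 1 of 7 of the 8 libraries ended the call, with adjusted p from 0.0603 to 0.133; the exception was day 2 EV replicate 1.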

How the results depend on the processing

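Of the calls for the factors, those of Tfap2c from day 2 to day 6 in EV and of Prdm14 in OE held under all alternatives run, and both dTAG13 calls were lost under some. With the fit limited to the groups compared, Prdm1 (-0.57) and Tfap2c (-0.88) in OE at day 2, Prdm14 (0.51) and Tfap2c (0.39) in OE at day 6 and the differences of OE effects of Prdm14 (0.60) and Tfap2c (1.27) passed, while Prdm14 (-0.53) and Tfap2c (0.68) with dTAG13 did not. Quantile normalization let Tfap2c pass in OE at day 2 (-0.93) and in the difference (1.26), and Prdm1 over the days in EV (-0.61), and turned Prdm1 over the days in OE (-0.067). Median-ratio scaling let Tfap2c pass in the same 2 (-0.92 and 1.24), ended the dTAG13 call of Prdm14 (-0.45) and turned Prdm1 in OE at day 6 (-0.0037) and Itgb3 in OE at day 2 (-0.0012). A pseudocount of 0.1 ended the dTAG13 call of Tfap2c (0.69). The cause was not tested. Quantile normalization moved the median of all genes from -0.13 to -0.0019 with dTAG13 and from 0.08 to -0.04 over the days in OE.

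Genes past the threshold numbered 102, 448, 28, 1473, 2863, 3890 and 47 for OE at day 2, OE at day 6, their difference, dTAG13, days in EV, days in OE and DMSO against EV. Quantile normalization gave 188, 1048, 151 and 81 for the first 3 and the last, and median-ratio scaling 173 and 50 for the first and the third. Fits of only the groups compared gave 1382, 3495, 1194, 0, 5244, 7339 and 302, the 0 with limma standing beside 1162 at an unadjusted p below 0.05.

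Leaving out 1 library assumes that a lone sample varies like the other groups. Counts then ran from 1 to 1688, 18 to 3044, 2 to 1336, 203 to 7223, 1089 to 6267, 1863 to 7084 and 9 to 972 in the same order, the highest without the first dTAG13 library, or for dTAG13 without the second (2796 without the first). In OE at day 2, differences ran from -0.67 to -0.46 (Prdm1), -1.11 to -0.65 (Tfap2c) and -0.089 to 0.13 (Itgb3), and in OE at day 6 from -0.14 to 0.24 (Prdm1) and 0.45 to 0.57 (Prdm14). With dTAG13 they ran from -0.83 to -0.61 (Prdm1), -0.66 to -0.39 (Prdm14) and 0.48 to 0.88 (Tfap2c). The differences of OE effects ran from 0.53 to 0.68 (Prdm14) and 1.04 to 1.495 (Tfap2c), Tfap2c over the days in OE from -0.015 to 0.44, and DMSO against EV from -0.0070 to 0.20 (Prdm1) and -0.11 to 0.29 (Itgb3). Of 58 calls of named list genes, 23 held whichever library was left out and 35 under all other alternatives.

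Samples shared only a replicate number; deviations of same-numbered samples correlated between -0.116 and 0.252 over the pairs of groups compared. The replicate block gave 98, 372, 21, 1349, 2741, 3777 and 39 calls and changed no call of the 3 factors; crossed pairings, added after seeing the data, gave 325 for OE at day 6 and 1414 for dTAG13. The depth behind low FPKM is unknown.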
